A study of Mus musculus with 20 samples.

Results

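Chrnb4 is the mouse gene for the β4 subunit of neuronal nicotinic acetylcholine receptors, and it is 1 gene of the 12701 in a count table from the proximal colon (PC). It was chosen by its measured values: a small graded rise of its counts over 4 diets and its correlation with neuronal and epithelial genes in the same 20 libraries. Its levels by diet, its slope, and its correlations are therefore given as a description, without a test. The mice were C57BL/6, an inbred laboratory strain, and entered the study at weaning, at 3 to 4 weeks of age. All of them, the 0% group included, ate the Total Western Diet (TWD), which copies the nutrient profile of an American diet, for 6 weeks and then for 3 more weeks the TWD with 0, 2, 5, or 10% raw potato starch, a resistant starch (RPS). Each diet had 5 libraries.

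Nicotinic receptors are cation channels made of 5 subunits that open when acetylcholine binds. In autonomic ganglia and in the enteric nervous system, the nerve network of the gut wall, receptors of α3 and β4 subunits, at times with α5, carry fast excitatory transmission between neurons. The genes of these subunits, Chrna5, Chrna3, and Chrnb4, lie side by side in the genome. Chrnb4 (ENSMUSG00000035200, protein-coding) lies on chromosome 9 of GRCm39 from 54935438 to 54956076, on the minus strand, with 7 exons. Chrna3 lies on the same strand, and its start is about 1.5 kb from the 3′ end of Chrnb4. The gene overlaps the long noncoding RNA Gm47877 on the opposite strand by 0 exonic bases.

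The 250 bases in front of the annotated starts of Chrnb4 and Chrna3 are printed because these neighbours followed different patterns over the diets. Both are read 5′ to 3′ on the minus strand of GRCm39, from chr9:54956077-54956326 for Chrnb4 and from chr9:54933942-54934191 for Chrna3. Capitals mark the CACCC box on either strand.
Chrnb4: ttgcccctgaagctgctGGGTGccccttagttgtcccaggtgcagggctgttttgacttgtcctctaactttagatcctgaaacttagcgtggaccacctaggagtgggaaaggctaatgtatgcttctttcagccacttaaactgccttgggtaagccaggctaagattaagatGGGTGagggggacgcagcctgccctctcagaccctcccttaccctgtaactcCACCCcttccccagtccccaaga
Chrna3: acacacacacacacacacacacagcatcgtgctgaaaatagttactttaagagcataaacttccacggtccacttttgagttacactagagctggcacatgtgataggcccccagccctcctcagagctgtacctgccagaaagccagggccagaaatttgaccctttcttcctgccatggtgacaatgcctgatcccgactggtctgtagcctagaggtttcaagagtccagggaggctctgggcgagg
The Chrnb4 window held the letters CACCC, or their complement GGGTG, in 3 places and had a GC content of 54.0%. The Chrna3 window held them in 0 places and had a GC content of 52.0%. The same letters occurred in 54.5% of the 12681 windows of this length in front of the genes in the table, so their presence is common. The GC box GGGCGG, found in 38.6% of the windows, and the E-box CAGCTG, found in 12.0%, were in neither sequence on either strand. A match of letters is not a binding site.

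The libraries held 20581013 to 35083751 counts, and Chrnb4 had 430 to 872 of them, with a median of 602. Levels are given as normalised counts, which are counts divided by the DESeq2 size factor of the library. All 24 listed epithelial and all 10 smooth muscle genes were in the table, as were 17 of 20 pan-neuronal genes. Each of them had counts in all 20 libraries, so the segments held RNA of mucosa, muscle, and nerve cells. No marker of position along the gut was used, so the position rests on the labels. Replicate 2 of the 0% RPS diet was among the 2 libraries farthest from the median in the scores of smooth muscle, interstitial cells of Cajal, fibroblasts, and endothelium. It also stood apart in some of the 24 epithelial genes, named here after their values were seen. Car1 had 70115 normalised counts in it and 239322 to 361131 in the other 0% RPS libraries. For Slc26a3 these values were 12364 and 3595 to 5957, and for Aqp8 6463 and 98.0 to 917. The cause was not tested. In addition, 3 libraries (2% RPS replicate 5 and 10% RPS replicates 4 and 5) carry label numbers outside the run of the other 17. The numbers of those 17 rise in the order of the diets, so label order and dose cannot be told apart. For Chrnb4, its ratio to Chrna3, the correlations with scores, and the list genes past the test, values without that replicate or without these 3 libraries are given where they end a call, turn a direction, or differ by more than 1.5 times. Because each segment is a mixture of cells, fewer cells of a type and less RNA per cell cannot be told apart.

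The mean of Chrnb4 was higher with each addition of RPS, in small steps from the TWD alone to 10% RPS. At 0% RPS the 5 libraries had 557, 448, 542, 574, and 552 normalised counts. At 2% RPS they had 565, 569.8, 583, 561, and 636. Replicate 2 was far below the other 0% RPS libraries, and replicate 5 was the highest at 2% RPS. At 5% RPS the values were 664, 687, 586, 620.2, and 577, and at 10% RPS they were 738, 661, 743, 803, and 781. The 10% RPS libraries thus lay above every 0% and 2% RPS library, while neighbouring diets overlapped.

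**Figure D1:**
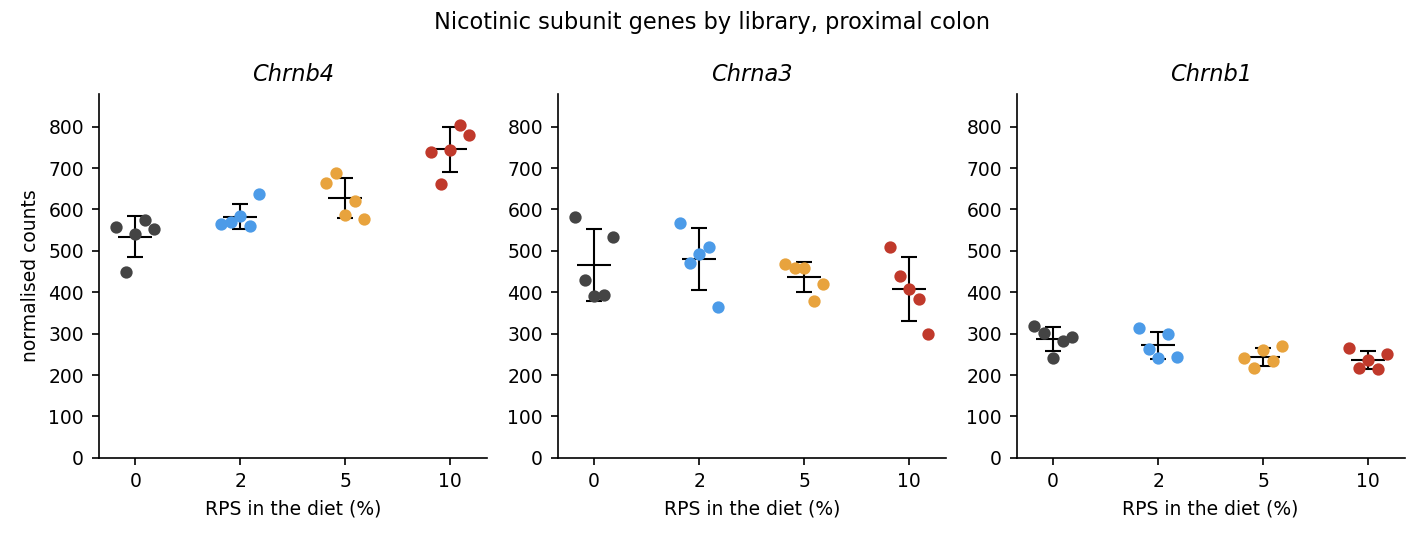
Normalised counts of Chrnb4, Chrna3, and Chrnb1 in each of the 20 PC libraries (points) by the percentage of RPS in the diet, with the mean and SD of 5 libraries. The mean of Chrnb4 was 535 at 0% RPS and 745 at 10% RPS, whereas the means of Chrna3 and Chrnb1 were lower at 10% RPS than at 0% RPS.

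The mean of Chrnb4 was 535 ± 49.9 at 0% RPS, 583 ± 31.1 at 2% RPS, 627 ± 48.1 at 5% RPS, and 745 ± 54.3 normalised counts at 10% RPS (SD, n = 5). Relative to the TWD alone the means were higher by 9.05%, 17.3%, and 39.4%. The steps between neighbouring diets were 48.4, 44.1, and 118 normalised counts, set against SDs of 31.1 to 54.3 within diets. Per percentage point of RPS, these steps amounted to 24.2, 14.7, and 23.6 normalised counts, so the middle step was the shallowest. Compared with the highest 0% RPS library, 2 of 5 libraries at 2% RPS, 5 of 5 at 5% RPS, and 5 of 5 at 10% RPS were higher. Of the 10% RPS libraries 4 of 5 exceeded the highest 5% RPS library, and only replicate 2 did not.

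In the DESeq2 fit the log2 difference of Chrnb4 from 0% RPS was 0.12 ± 0.08 at 2% RPS, 0.23 ± 0.08 at 5% RPS, and 0.48 ± 0.08 at 10% RPS (SE), which are folds of 1.09, 1.17, and 1.39. All 3 lie under the fold of 1.5 that the study required of a changed gene. The slope was 0.046 ± 0.0069 (SE) on the log2 scale per percentage point of RPS. These comparisons share the 0% RPS libraries. Without replicate 2 of the 0% RPS diet the 0% mean was 556 ± 13.6 (SD, n = 4), and the log2 differences became 0.069, 0.17, and 0.42, that at 2% RPS being reduced by more than 1.5 times. Without the 3 libraries of outlying label number the means at 2% and 10% RPS were 569.6 ± 9.91 (n = 4) and 714 ± 45.7 (n = 3), and the log2 difference at 10% RPS was 0.41.

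The spread of Chrnb4 within diets was also small. A small graded rise shows only where this spread is small, so the way the gene was chosen favoured it. The coefficient of variation of Chrnb4 within a diet was 5.33% to 9.34%, where counting error alone gives 3.66% to 4.43%. On the log2 scale the SD within diets was 0.11, and only 24.5% of the 5055 genes with a mean within 2-fold of Chrnb4 had a smaller one. The corresponding SD was 0.24 for Chrna3 and 0.15 for Chrnb1. Reads of other genes could enter the count of Chrnb4 at few places: 1.1% of the 50-base windows of its transcripts occur in transcripts of another gene.

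Of the nicotinic receptor family, 16 subunit genes were listed and 3 were in the table. The other 13, among them Chrna5 and Chrna7, were not analysed here. Chrna3, which encodes the α3 partner of β4, had 583, 430.1, 391, 393, and 534 normalised counts at 0% RPS and 509, 439, 407, 385, and 299.6 at 10% RPS. The ranges of these diets overlapped widely, with the lowest value of all in replicate 5 at 10% RPS. Its means were 466 ± 87.3, 481 ± 75.0, 436 ± 36.9, and 408 ± 76.6 at 0, 2, 5, and 10% RPS (SD, n = 5). The log2 difference at 10% RPS was −0.19 ± 0.15 (SE, adjusted p = 0.482 with DESeq2), with a 95% interval of −0.48 to 0.095.

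Chrnb1, the β1 subunit of the muscle receptor, had 240.0 to 319 normalised counts at 0% RPS with a median of 292, and 215 to 266 at 10% RPS with a median of 236. These ranges overlapped. Its means were 287 ± 29.7, 272 ± 33.2, 244 ± 21.8, and 237 ± 21.8 over the diets (SD, n = 5), and the log2 difference at 10% RPS was −0.27 ± 0.10 (SE, DESeq2 adjusted p = 0.106). In the trend over RPS its slope was −0.028 (adjusted p = 0.0693). Neither Chrna3 nor Chrnb1 passed an adjusted p of 0.05 at any level, where DESeq2 called 0.0239% of all genes at 2% RPS, 1.9% at 5% RPS, 4.6% at 10% RPS, and 4.29% in the trend. At an unadjusted p under 0.05, 1 of these 2 genes passed at 10% RPS with DESeq2, where 18.8% of all genes did, and 1 with edgeR.

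The mean ratio of Chrnb4 to Chrna3 was highest at 10% RPS, and its order at 0% and 2% RPS turned on 1 library. Per kilobase of exon, the ratio in a library averaged 1.62 ± 0.32 at 0% RPS, 1.72 ± 0.41 at 2% RPS, 1.99 ± 0.18 at 5% RPS, and 2.62 ± 0.65 at 10% RPS (SD, n = 5). Without 2% RPS replicate 5, at 2.42, the mean at 2% RPS was 1.55 ± 0.13 (SD, n = 4), below that at 0% RPS. Without 10% RPS replicates 4 and 5 the mean at 10% RPS was 2.20 ± 0.28 (SD, n = 3). The lowest 10% RPS library, at 2.001, lay just under the highest 0% RPS library, at 2.02. The highest ratio was that of 10% RPS replicate 5, in which Chrna3 was lowest. Which gene has the higher level per length depends on the transcript used: with all annotated exons (3881 and 5360 bases) Chrnb4 was at 1.92 times the level of Chrna3, and with the canonical transcripts (3736 and 2414 bases) at 0.898 times. The end of Chrna3 overlaps that of Chrna5 on the opposite strand, and 14.8% of its 50-base windows occur in other genes, read on either strand. Its count is therefore less certain than that of Chrnb4, by how much depends on whether the counting used the strand.

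Genes that act on or with nicotinic receptors did not pass the test. Of 8 genes for assembly and modulation 5 were in the table, and 0 passed at 10% RPS, where 4.6% of all genes did. At an unadjusted p under 0.05, 1 passed with DESeq2, where 18.8% of all genes did, and 1 with edgeR. In lists this short, 0 calls does not set the genes apart from all genes. Tmem35a encodes NACHO, an assembly chaperone of nicotinic receptors, and had a mean of 251 at 0% RPS and 318 normalised counts at 10% RPS, a log2 difference of 0.34 ± 0.17 (SE, adjusted p = 0.229). The others belong to the Ly6 family of receptor modulators. Their log2 differences at 10% RPS ran from −0.16 for Lynx1 over 0.12 for Lypd6b and 0.16 for Ly6e to 0.27 for Ly6g6e.

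Of the 7 genes that make, move, or break down acetylcholine 4 were in the table, and 0 passed at 10% RPS, where 4.6% of all genes did. At an unadjusted p under 0.05, 0 passed with DESeq2, where 18.8% of all genes did, and 0 with edgeR. Slc18a3, the vesicular acetylcholine transporter, had a log2 difference of −0.34 ± 0.18 (SE, adjusted p = 0.266). Slc5a7, the choline transporter, was at −0.022, Ache, acetylcholinesterase, at 0.039, and Bche, butyrylcholinesterase, at −0.0021 on the same scale. Chat, the synthesising enzyme, was not analysed here. The muscarinic receptors, the G protein-coupled class of acetylcholine receptors, had 3 of 5 genes in the table. Beside the same shares of all genes, 0 of these 3 were called at 10% RPS and 0 had an unadjusted p under 0.05 with either tool. Their log2 differences were 0.12 for Chrm1, −0.29 for Chrm2, and −0.36 for Chrm4.

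**Figure D2:**
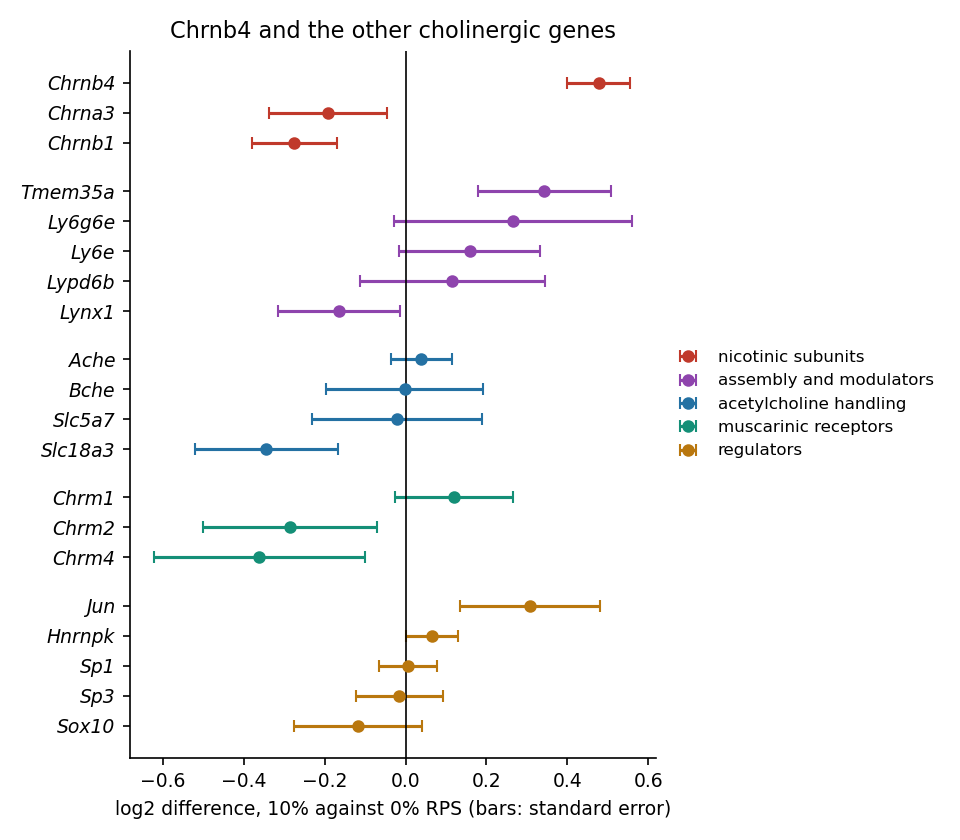
Log2 difference between 10% and 0% RPS (x axis) with its standard error for Chrnb4 and the 19 other nicotinic, cholinergic, and regulator genes in the table (y axis), coloured by list. Chrnb4, at 0.48, lies to the right of all others, and the log2 differences of the others run from −0.36 to 0.34.

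Transcription factors known to act on the Chrnb4 promoter were measured too. Of 7 listed, 5 were in the table and 0 passed at 10% RPS, where 4.6% of all genes did. At an unadjusted p under 0.05, 0 passed with DESeq2, where 18.8% of all genes did, and 0 with edgeR. The log2 difference at 10% RPS was 0.31 ± 0.17 for Jun (SE, adjusted p = 0.315), 0.065 for Hnrnpk, 0.0065 for Sp1, −0.015 for Sp3, and −0.12 for Sox10.

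The neighbours of Chrnb4 on chromosome 9 were examined for a shared pattern. Within 500 kb, 12 other genes were in the table, and 0 of the 12 passed at 10% RPS, where 4.6% of all genes did. At an unadjusted p under 0.05, 18.8% of all genes passed with DESeq2, and of the 12, 3 did with DESeq2 and 2 with edgeR. Their log2 differences ranged from −0.39 (Sh2d7) to 0.18 (Etfa), with 4 positive and 8 negative, while Chrnb4 was at 0.48. Psma4, a proteasome subunit gene 69.0 kb away, passed at 5% RPS with DESeq2 (log2 difference 0.17, adjusted p = 0.0463), where edgeR called 0 of the 12, and was at 0.10 at 10% RPS (adjusted p = 0.234). Ireb2, an iron-responsive RNA-binding protein gene, was at 0.092, Ube2q2 at −0.023, and Fbxo22 at −0.092, and Idh3a, Skic8, Crabp1, Cib2, and Dnaja4 lay between −0.15 and 0.067. The r of these genes with Chrnb4 over the 20 libraries ran from −0.40 for Chrna3 to 0.64 for Etfa, a mitochondrial electron transfer gene.

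**Figure D3:**
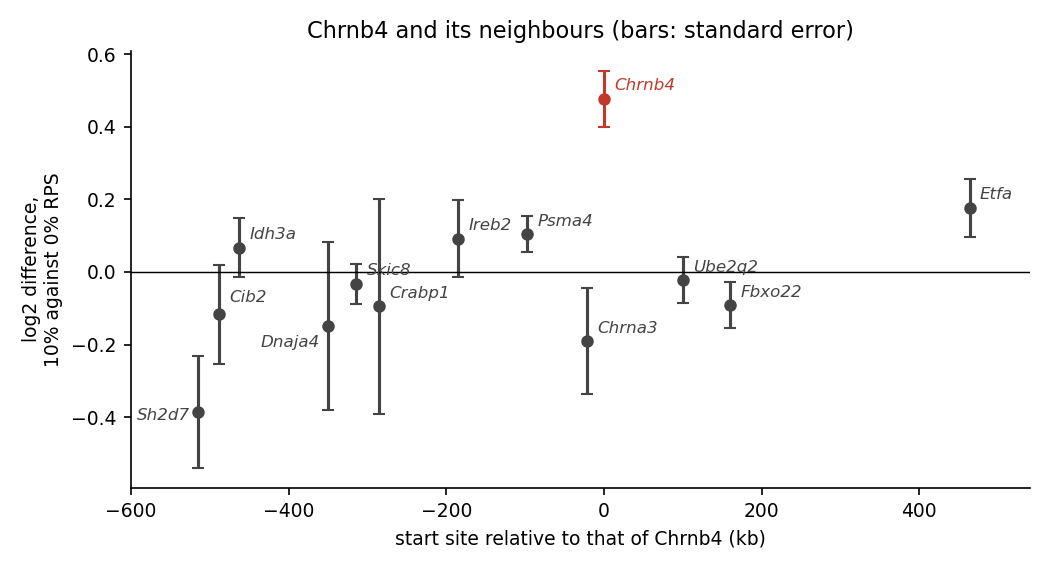
Log2 difference between 10% and 0% RPS with its standard error (y axis) for Chrnb4 (red) and the 12 other genes of the table within 500 kb, placed by the distance of their start sites from that of Chrnb4 in kb (x axis). Chrnb4 is at 0.48, and the nearest gene, Chrna3, is at −0.19.

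Libraries with more Chrnb4 tended to have lower levels of neuronal genes. The pan-neuronal score of a library is the mean of log2(normalised count + 1) over 17 genes of neuronal identity, cytoskeleton, and synapses. Over the 20 libraries Chrnb4 had a Pearson's r of −0.59 and a Spearman's rho of −0.55 with this score. With both values centred on the diet mean r was −0.49, and without the 2 libraries farthest from the median score (2% RPS replicate 1 and 10% RPS replicate 5) it was −0.50. Without the 3 libraries of outlying label number r was −0.34, a reduction by more than 1.5 times. Library and depth are shared by both values, and the r of Chrnb4 with the log10 of the total count was 0.31.

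Each of the 17 pan-neuronal genes had a negative r with Chrnb4, from −0.72 for Celf4 to −0.19 for Nefl, whereas 48% of the 11978 genes whose mean normalised count reached 50 were negative. Uchl1, a neuronal ubiquitin hydrolase, was at −0.63, Prph, the intermediate filament peripherin, at −0.62, and Snap25, a synaptic vesicle fusion protein, at −0.59. Elavl4, an RNA-binding protein of neurons, was at −0.49, and Ret, the receptor of enteric neuron precursors, at −0.40. Among transmitter genes, Nos1 (neuronal nitric oxide synthase) was at −0.60, Vip (vasoactive intestinal peptide) at −0.35, Tac1 (substance P precursor) at −0.067, and Penk (enkephalin precursor) at 0.14.

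Chrna3 differed in this respect. The rule chose Chrnb4 and not Chrna3, but the lists were chosen with earlier results of these data known. Chrna3 and the 17 listed genes are all genes of neurons, so in mixed segments a high r was likely before the test. The resamples took no account of diet. Chrna3 had an r of 0.90 and a rho of 0.87 with the pan-neuronal score over the same 20 libraries (permutation test, two-sided, 100000 resamples, p = 1e-05, the smallest these can give, adjusted over 4 tests 2e-05 for both). Centred on the diet means its r was 0.88, and without the 2 libraries farthest from the median score it was 0.83. With the epithelium score its r was −0.24 (permutation p = 0.31, adjusted 0.349) and its rho −0.22 (permutation p = 0.349, adjusted 0.349), and r was −0.04 without the 3 libraries of outlying label number. Chrnb4 and Chrna3 had an r of −0.40 with each other, −0.19 when centred on the diet means, and −0.078 without the 3 libraries of outlying label number.

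**Figure D4:**
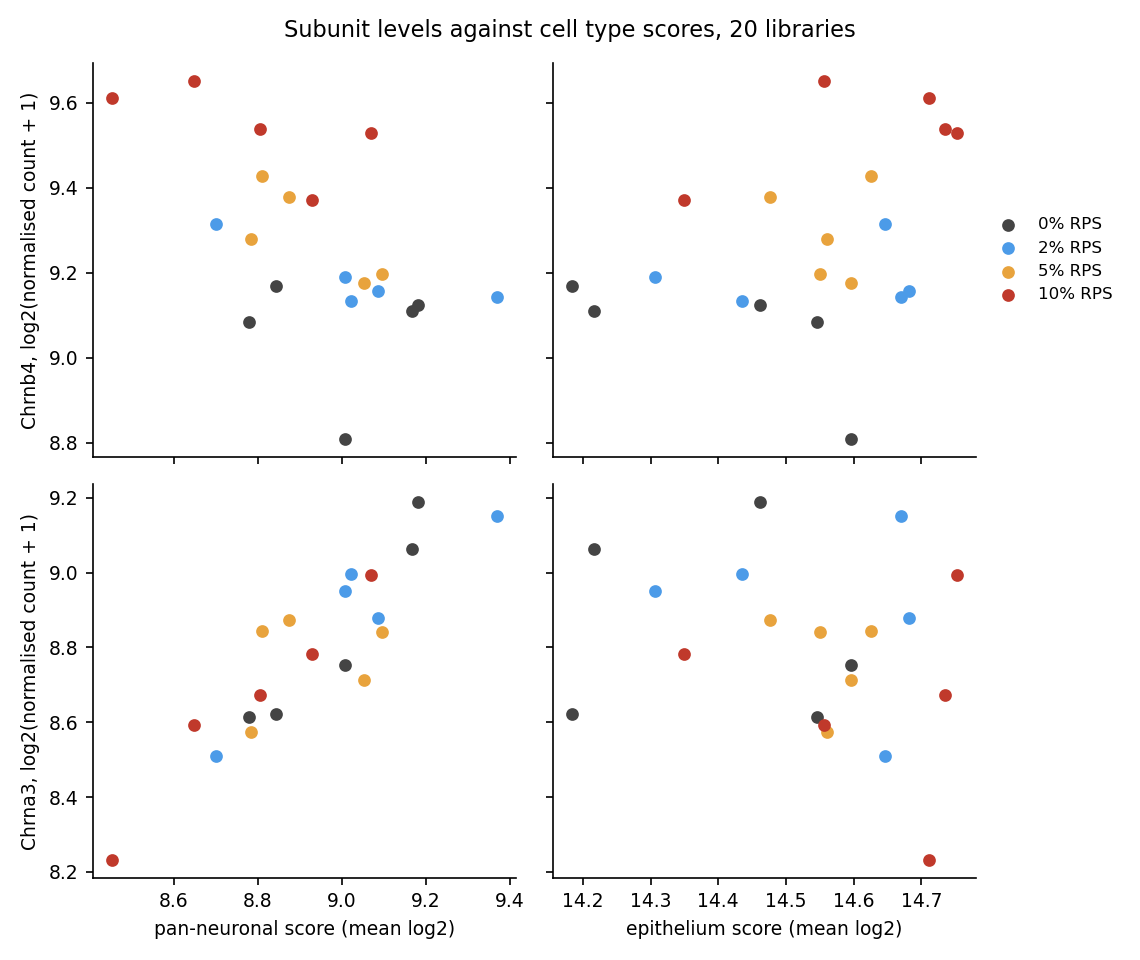
Log2(normalised count + 1) of Chrnb4 (top) and Chrna3 (bottom) against the pan-neuronal score (left) and the epithelium score (right) in 20 libraries, coloured by diet. Chrna3 climbs with the pan-neuronal score (r = 0.90), while Chrnb4 is lower where it is higher (r = −0.59), and the 10% RPS libraries form the top of the Chrnb4 panels.

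By diet, the pan-neuronal genes did not pass the test. At 10% RPS 0 of 17 were called, where 4.6% of all genes were (unadjusted p under 0.05: 5 with DESeq2 and 5 with edgeR, and 18.8% of all genes with DESeq2), but 16 of 17 had a negative log2 difference, and the median was −0.21 beside a median of 0.000036 over all genes tested. Without the 3 libraries of outlying label number 14 of 17 were negative and the median was −0.072. At 5% RPS 15 of 17 were negative (median −0.10), but at 2% RPS 15 of 17 were positive (median 0.025). In the trend 0 of 17 were called, where 4.29% of all genes were. At an unadjusted p under 0.05, 9 of 17 passed with DESeq2, a larger share than the 19.1% of all genes, and 9 with edgeR. Of the 17 slopes 16 were negative. Their median was −0.024 per percentage point of RPS, and −0.015 without the 3 libraries of outlying label number. The 17 genes were measured in the same libraries, so their signs are not separate observations. Values at 10% RPS were −0.33 for Uchl1 (adjusted p = 0.213), −0.36 for Prph (adjusted p = 0.16), −0.23 for Snap25, −0.16 for Elavl4, and −0.10 for Ret. With the pan-neuronal score as a covariate, the log2 difference of Chrnb4 at 10% RPS was 0.42 ± 0.08 (SE), against 0.48 without it.

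The epithelium score, a mean over 24 genes, had an r of 0.35 and a rho of 0.43 with Chrnb4. Centred on the diet means, r turned to −0.086, so that the positive value was not present between libraries of the same diet. Without the 2 libraries farthest from the median score (0% RPS replicates 4 and 5) r was 0.29. Of the 24 genes 21 had a positive r with Chrnb4, with a median of 0.35, beside a median of 0.02 over all 11978 genes. The highest was Epcam, an epithelial adhesion molecule, at 0.69, and the lowest Slc26a3, the chloride and bicarbonate exchanger of the colon surface, at −0.41. The highest Slc26a3 level of all libraries, 12364 normalised counts, was that of 0% RPS replicate 2. Vil1 (villin, of the brush border) was at 0.54, Cdh1 (E-cadherin) at 0.499, Muc2 (the goblet cell mucin) at 0.41, and Krt8 (a keratin of simple epithelia) at 0.26. Centred on the diet means Vil1 was at 0.54 and Epcam at 0.27, while Cdh1 was at 0.0049 and Muc2 at −0.11.

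A few epithelial genes passed the test with DESeq2 and not with edgeR. At 10% RPS 2 of 24 were called, where 4.6% of all genes were, both higher: Epcam rose from 38519 to 43964 normalised counts (log2 difference 0.19 ± 0.05 SE, adjusted p = 0.00666, edgeR 0.095), and Krt20, a keratin of differentiated surface cells, by 0.47 ± 0.13 (SE, adjusted p = 0.0193, edgeR 0.08). Krt20 also passed at 5% RPS (0.45, adjusted p = 0.0476, edgeR 0.146). In the trend, where 4.29% of all genes were called, 3 of 24 passed, all rising: Epcam (adjusted p = 0.023), Car4, a carbonic anhydrase (adjusted p = 0.0329), and Agr2, a disulfide isomerase of goblet cells (adjusted p = 0.0358). By edgeR 0 of the 24 passed at 5% or 10% RPS or in the trend, and at an unadjusted p under 0.05 11 passed at 10% RPS with DESeq2, where 18.8% of all genes did, and 10 with edgeR. Without the 3 libraries of outlying label number these calls were lost: the adjusted p at 10% RPS was 0.123 for Epcam and 0.104 for Krt20, that of Krt20 at 5% RPS was 0.0664, and those in the trend were 0.143 for Epcam, 0.132 for Car4, and 0.317 for Agr2 (DESeq2). The log2 differences at 10% RPS were positive in 21 of 24, with a median of 0.17. With the epithelium score as a covariate, the log2 difference of Chrnb4 at 10% RPS was 0.49 ± 0.09 (SE).

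**Figure D5:**
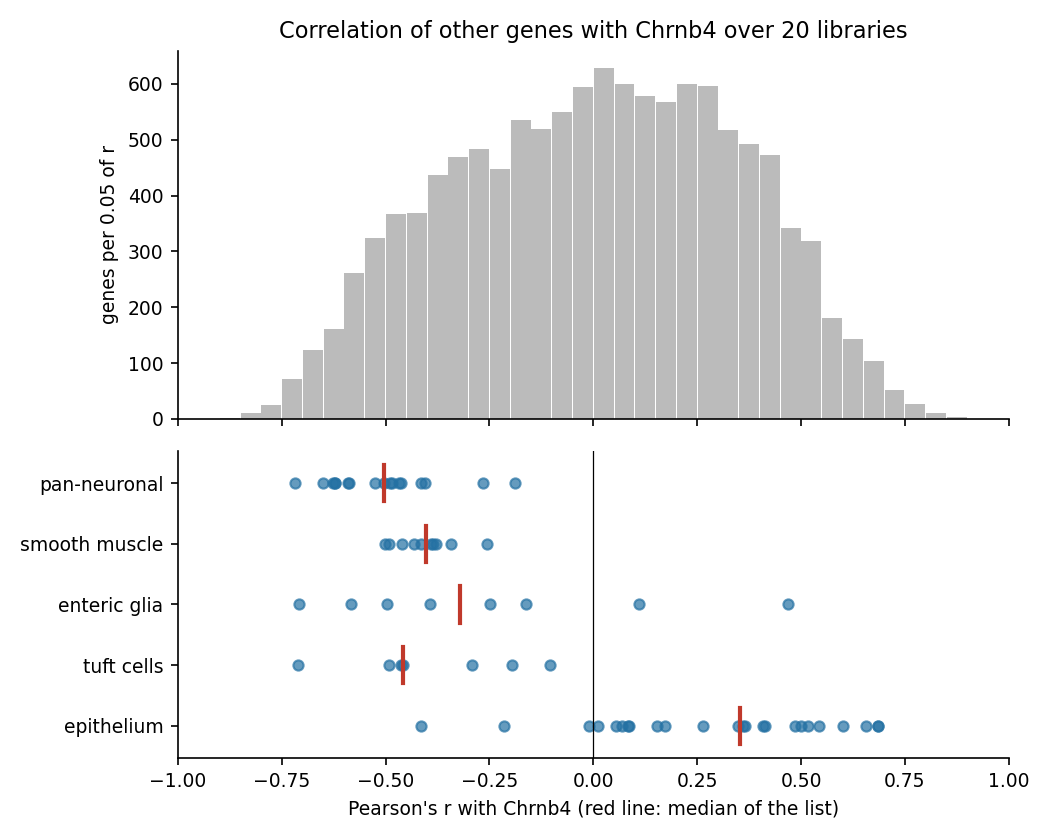
Pearson's r with Chrnb4 over 20 libraries (x axis) for 11978 genes, as the number of genes per 0.05 of r (top), and for the genes of 5 cell type lists, 1 point per gene with the list median in red (bottom). All 17 pan-neuronal genes lie below 0 with a median of −0.50, and the median of the 24 epithelial genes is 0.35.

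Other cells of the gut wall gave negative correlations as well. The score of 10 smooth muscle genes had an r of −0.42 with Chrnb4 (−0.49 centred on the diet means), but −0.20 without 0% RPS replicate 2. At 10% RPS 0 of the 10 passed, where 4.6% of all genes did. At an unadjusted p under 0.05 it was 0 with DESeq2 (18.8% of all genes) and 0 with edgeR. All 10 log2 differences were negative: Myh11 (a smooth muscle myosin) at −0.19, Actg2 (smooth muscle actin) at −0.08, and Des (desmin) at −0.29. Their median was −0.18, and without 0% RPS replicate 2 it was −0.033, with 7 of 10 negative. The r of the glial score was −0.46, that of the score of interstitial cells of Cajal, the pacemaker cells of the gut, −0.65, and that of tuft cells −0.60. Centred on the diet means these were −0.40, −0.45, and −0.13, and without the 3 libraries of outlying label number the glial r was −0.17. For fibroblasts (−0.498) and endothelium (−0.48) r was −0.21 and −0.16 without 0% RPS replicate 2, and for leukocytes it was 0.24 (0.46 without that library). The r of Chrnb4 with the score of transmitter genes was −0.34 (−0.088 without the 3 libraries), and with that of muscarinic receptors −0.44. With enteroendocrine genes r was −0.32, but −0.13 without 0% RPS replicate 2 and −0.55 without the 3 libraries. With acetylcholine genes it was −0.20, but −0.48 without that replicate and −0.071 without the 3 libraries, and with the listed regulators it was 0.24, and 0.14 without that replicate. For the assembly genes r was 0.013 over all libraries, 0.51 without 0% RPS replicate 2, −0.19 without the 3 libraries, and −0.59 when centred on the diet means. Of the transmitter genes 0 of 13 passed at 10% RPS, where 4.6% of all genes did. At an unadjusted p under 0.05, 0 passed with DESeq2, where 18.8% of all genes did, and 0 with edgeR.

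Among genes of enteric glia, the support cells of enteric neurons, 1 of 8 passed the test at 10% RPS, where 4.6% of all genes did. Gfap, an astrocyte and glial filament gene, rose from 262 at 0% RPS to 398 normalised counts at 10% RPS (log2 difference 0.61 ± 0.16 SE, adjusted p = 0.00797, edgeR 0.0569). It also passed in the trend (adjusted p = 0.00241, edgeR 0.0378). S100b was at −0.25 and Sox10 at −0.12 at 10% RPS. The r of Gfap with Chrnb4 was 0.47, and centred on the diet means it was −0.38.

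In the remaining lists the calls at 10% RPS were downward. Insl5, a peptide hormone of colonic enteroendocrine cells, had a log2 difference of −1.61 (adjusted p = 0.0258, edgeR 0.107). This value rests on 0% RPS replicate 2, with 458 normalised counts beside 34.2 to 77.9 in the other 0% RPS libraries and 34.9 to 49.99 at 10% RPS. Without that library the log2 difference was −0.36 (DESeq2 adjusted p = 0.343). Of the 8 enteroendocrine genes in the table, 3 had positive and 5 had negative log2 differences at 10% RPS, with a median of −0.13. Among the positive ones, named after their values were seen, were Tph1 (serotonin synthesis) at 0.52 and Chgb (a granin) at 0.31. Their adjusted p was 0.167 and 0.453 (DESeq2). The tuft cell genes Alox5ap (−0.61, adjusted p = 0.0289), Sh2d6 (−0.52, adjusted p = 0.025), and Trpm5 (−0.49, adjusted p = 0.0478) also passed with DESeq2 and not with edgeR. Without 0% RPS replicate 2, Alox5ap was at −0.41 (adjusted p = 0.086), and without the 3 libraries of outlying label number the adjusted p was 0.158 for Insl5, 0.185 for Alox5ap, 0.129 for Sh2d6, and 0.112 for Trpm5 (DESeq2). Over all lists 120 genes other than Chrnb4 were in the table. At 10% RPS 7 of them (5.83%, 3 higher and 4 lower) passed, near the 4.6% of all genes. At an unadjusted p under 0.05, 35 of the 120 passed with DESeq2, a larger share than the 18.8% of all genes, and 33 with edgeR. In the trend 7 were called (5.83%, 4 higher and 3 lower), where 4.29% of all genes were. There 40 had an unadjusted p under 0.05 with DESeq2, a larger share than the 19.1% of all genes, and 38 with edgeR. At 2% RPS 0 of the 120 passed, where 0.0239% of all genes did. An unadjusted p under 0.05 was reached by 12 with DESeq2, where 8.7% of all genes reached it, and by 10 with edgeR. At 5% RPS 2 passed (1.67%), Krt20 and Alox5ap, near the 1.9% of all genes. There 18 had an unadjusted p under 0.05 with DESeq2, beside 16.6% of all genes, and 16 with edgeR.

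The genes most like Chrnb4 over the 20 libraries were in none of the lists above. The 10 highest r, from 0.87 to 0.81, were those of Ceacam12, Chn2, Lpo, Atp2b1, Ceacam1, Suclg2, Gak, Map2k4, Fam3c, and Gnai3. All of them had higher means at 10% than at 0% RPS, by log2 differences of 0.14 for Gak to 2.02 for Ceacam12. Ceacam12 and Ceacam1 belong to the carcinoembryonic antigen family of surface proteins, and their means went from 35.4 to 143 and from 59155 to 89772 normalised counts. Lpo, lactoperoxidase, went from 566 to 1306, and Atp2b1, a calcium pump of the plasma membrane, from 8478 to 12611. The genes with the lowest r, from −0.87 to −0.83, were Col23a1, Gtf2i, Dusp26, Serf1, and Cttnbp2, and all had lower means at 10% RPS. Col23a1, a membrane collagen, went from 1022 to 580.3 normalised counts.

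Within diets the order was another one. With all values centred on the diet means the highest r, from 0.81 to 0.75, were those of Tns4, Sdr39u1, Gcsh, Ntrk2, Nmd3, Pop4, Gnpnat1, Snx2, Cops3, and Suclg2. Only 1 gene, Suclg2, a subunit of the mitochondrial succinyl-CoA ligase, was among the 10 highest by both measures, with an r of 0.83 and a centred r of 0.75. Ntrk2, a neurotrophin receptor, had 0.63 and 0.78. The lowest centred r, from −0.87 to −0.80, were those of Vwa1, Emsy, Itm2a, Nt5m, and Pld2. Over all 11978 genes r lay between −0.56 and 0.54 from the 5th to the 95th percentile, and 13 genes reached 0.8 or more and 12 reached −0.8 or less.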

How the data were processed

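Single-end RNA sequencing of PC segments gave 20 libraries, 5 per diet. The deposited values are raw read counts per Ensembl gene: per the study's methods the authors trimmed and filtered the reads and aligned and counted them in CLC Genomics Workbench on GRCm39, and the counts were not normalised. The study's methods name a stranded library kit. The annotation, whether the counting used the strand, and the handling of reads that match several places are not given in the sources used here. Counts of overlapping genes are therefore uncertain. Groups came from the treatment in the labels. The labels do not give litters or cages, so p-values measure the spread between these libraries only.

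DESeq2 (version 1.42.0, R version 4.3.3) is the tool the study names, and was fitted here to all 20 libraries and 12701 genes with diet as the term, or the RPS percentage as a number (trend), and p was adjusted by Benjamini-Hochberg over all genes. A gene was called at an adjusted p of 0.05 or less. edgeR (version 4.0.16, quasi-likelihood) was the alternative tool. Correlations used log2(normalised count + 1). A floor of 3 counts stood at 0.0855 to 0.146 CPM, and intervals cover counting or fitting error only. Chrnb4 and the gene lists were chosen with earlier results of these data known, and so were the named genes, which follow a fixed rule: all cholinergic list genes, listed markers, list genes past the test, neighbours within 500 kb, and the 10 highest and 5 lowest r among genes with a mean of 50 or more. A few genes that this rule names are not reported here. Symbols, coordinates, and transcripts came from GENCODE M39 (12682 identifiers found), and sequences from the GRCm39 genome. Plots were drawn in matplotlib (3.10.9) from tables read with pandas (2.3.3) under Python 3.11.15.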

Additional observations from a re-analysis of the deposited data

Results flagged for a closer look

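Among 24 groups of 5 libraries (Chrnb4, Chrna3, Chrnb1, the ratio of Chrnb4 to Chrna3, and the pan-neuronal and epithelium scores in each of 4 diets), Dixon's test set 2 libraries apart, while chance sets apart about 1 group in 20. The Chrnb4 level of 0% RPS replicate 2 was 448 normalised counts, and the other 4 libraries of that diet had 542 to 574. The ratio of Chrnb4 to Chrna3 per kilobase was 2.42 in 2% RPS replicate 5, and 1.37 to 1.68 in the other 4 libraries at 2% RPS. The cause was not tested in either case.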

How the results depend on the processing

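The log2 difference and slope of Chrnb4 kept their direction under all alternatives run (28 or 29 each). The gene was chosen for this rise, so this is a description. Each log2 difference moved by less than the SD within diets, 0.11, a loose limit at 2% RPS, where the difference itself was 0.12. The slope moved by less than that SD spread over the 10 points of RPS. The log2 differences at 10% RPS ran from 0.41 without the 3 libraries of outlying label number to 0.49 with the epithelium score as a covariate. Without each library in turn they ran from 0.42 (0% RPS replicate 2) to 0.52 (10% RPS replicate 2). At 2% RPS the lowest was 0.069, without 0% RPS replicate 2. The correlation with the pan-neuronal score was −0.34 without the 3 libraries and −0.67 to −0.49 without each library in turn. That with the epithelium score turned to −0.086 when centred on the diet mean, and was 0.29 to 0.47 without each library in turn. The ratio of Chrnb4 to Chrna3 at 2% RPS was 1.55 without 2% RPS replicate 5, an alternative chosen after seeing the data.

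Of the 120 list genes other than Chrnb4, those called at 5% RPS (2) were 0 with edgeR, and 1 with only the 2 diets compared, with the epithelium score as a covariate, without the 3 libraries, or with a fold of at least 1.5. Those at 10% RPS (7) were 0 with edgeR, 4 with the pan-neuronal score as a covariate, 1 with the epithelium score, 1 without the 3 libraries, and 3 with a fold of at least 1.5. Those in the trend (7) were 1 with edgeR, 2 with the pan-neuronal score, 1 with the epithelium score, and 1 without the 3 libraries. Without each library in turn the counts were 0 to 2 at 2% RPS, 0 to 6 at 5% RPS, 1 to 15 at 10% RPS, and 1 to 15 in the trend. At 10% RPS the libraries that moved the count by over 1.5 times were 0% RPS replicates 2 (11), 3 (15), 4 (3), and 5 (2), and 10% RPS replicates 2 (11), 3 (1), and 5 (1). In the trend they were 0% RPS replicates 1 (4), 2 (13), 3 (15), 4 (2), and 5 (2), 2% RPS replicates 4 (4) and 5 (15), and 10% RPS replicates 1 (14), 2 (15), 3 (1), 4 (4), and 5 (2). At 5% RPS the highest count, 6, was that without 0% RPS replicate 2. Epcam at 10% RPS and Gfap in the trend passed in 20 of these 20 fits, Gfap at 10% RPS in 17, Krt20, Insl5, and Sh2d6 at 10% RPS in 15, Alox5ap at 10% RPS in 14, Krt20 at 5% RPS in 10, and Trpm5 in 7. The causes were not tested. No paired analysis was possible because the labels give no replicate number shared between diets.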
